A study of Homo sapiens with 18 samples.

Results

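The expression and chromatin of 10 genes of the epithelial-mesenchymal transition (EMT) were followed in A2780 and Acis cells by RNA-seq and ATAC-seq: the transcription factors SNAI1, SNAI2, ZEB1, ZEB2 and TWIST1, the epithelial adhesion genes CDH1 and EPCAM, and the mesenchymal genes CDH2, VIM and FN1. They were taken by gene name from a table of 23622 genes. Of these 10 genes, 9 had a row in the table, and 7 passed the filter on low counts and were tested. CDH1 had no row in the table used here, so no RNA value is given for it, and EPCAM and FN1 were below the filter. A2780 is a cisplatin-sensitive human ovarian carcinoma line, and Acis is its resistant derivative, made by chronic exposure to cisplatin and re-exposed to a low dose of the drug at regular passages. Acis is a single derived line, so a difference between the lines cannot be told apart from one between 2 cell populations for any other reason. Each line was untreated or kept for 3 h in 200 µM cisplatin, giving the groups A2780 control, A2780 cisplatin, Acis control and Acis cisplatin, with 3 RNA-seq libraries and 1 ATAC-seq peak list each.

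EMT is a change of cell state in which epithelial cells lose junctions and gain motility. SNAI1, SNAI2, ZEB1, ZEB2 and TWIST1 are its classical transcription factors, and the SNAI and ZEB proteins repress CDH1 (E-cadherin) by binding E-box motifs in its promoter. CDH2 (N-cadherin), VIM (vimentin, an intermediate filament protein) and FN1 (fibronectin, a matrix protein) are the usual mesenchymal markers, whereas EPCAM is a surface adhesion protein of epithelia. Carcinoma lines often hold a mixture of both sets.

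Total counts ranged from 4130644 to 5072216 per library, and counts were scaled to a common library size (normalized counts). The mean squared difference between pairs of replicates was 0.748 to 1.45 times the variance from counting noise. Nothing in the labels ties replicates to separate cultures, so the p-values measure the spread between these libraries only. In bulk libraries, fewer cells of a type and less RNA per cell cannot be told apart. Of 12 genes listed as ovarian carcinoma markers, 3 had rows (KRT8, KRT18 and FOLR1), and PAX8, WT1 and MUC16 were among those without one. The summed normalized counts of these 3 genes were 32.7 to 49.1 without and 52.0 to 61.8 with cisplatin in A2780, and 135 to 157 and 147 to 153 in Acis. In untreated Acis KRT18 alone was higher (143 against 25.5 in A2780 control), while KRT8 was lower (4.06 against 15.6) and FOLR1 had 0 against 7 raw counts. Of 8 fibroblast markers 7 had rows, with sums of 4434 to 4659 without and 3341 to 3568 with cisplatin in A2780, and 3908 to 4048 and 3401 to 3564 in Acis. In untreated Acis 6 of the 7 were lower and 1 higher than in A2780, where 12.2% of all tested genes were lower and 6.99% higher. The higher one, COL3A1 (mean 3948 in Acis control, 1802 in A2780 control), made up most of the Acis sum. The lower ones included COL1A2, with 2402 counts over A2780 control and 0 over Acis control, and LUM, with 36 and 5. Genes that passed the filter only through A2780 had to differ, so this count is a description. None of 5 endothelial markers and 1 of 5 leukocyte markers (CD14, at most 3.75) had a row. The part of these markers in the results was not tested.

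The promoters of ZEB1, CDH2 and VIM are shown. ZEB1 and VIM had an ATAC-seq peak within 1000 bp of the start in every list, and CDH2 had none in any. CDH2 RNA was far lower in untreated Acis than in untreated A2780, whereas ZEB1 and VIM RNA differed little. Each is 300 bases of the RefSeq GRCh38.p14 sequence in the direction of the gene, from 250 bases before the start, and the capitals mark the E-box CAGGTG or its reverse complement CACCTG, the letters that the SNAI and ZEB factors are known to bind. The windows are chr10:31318966-31319265 (plus strand) for ZEB1, chr18:28177081-28177380 (minus strand) for CDH2 and chr10:17227991-17228290 (plus strand) for VIM.
ZEB1: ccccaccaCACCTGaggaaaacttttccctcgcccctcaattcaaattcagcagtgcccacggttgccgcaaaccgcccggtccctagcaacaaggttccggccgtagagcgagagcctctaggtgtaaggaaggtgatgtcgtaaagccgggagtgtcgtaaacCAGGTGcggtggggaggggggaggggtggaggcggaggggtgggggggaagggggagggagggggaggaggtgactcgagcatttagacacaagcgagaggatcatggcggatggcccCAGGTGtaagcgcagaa
CDH2: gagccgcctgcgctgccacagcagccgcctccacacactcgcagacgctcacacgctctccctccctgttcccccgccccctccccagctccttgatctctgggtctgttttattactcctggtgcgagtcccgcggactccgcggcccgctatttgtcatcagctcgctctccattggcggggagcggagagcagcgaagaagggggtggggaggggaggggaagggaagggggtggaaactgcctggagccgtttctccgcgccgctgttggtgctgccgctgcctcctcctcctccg
VIM: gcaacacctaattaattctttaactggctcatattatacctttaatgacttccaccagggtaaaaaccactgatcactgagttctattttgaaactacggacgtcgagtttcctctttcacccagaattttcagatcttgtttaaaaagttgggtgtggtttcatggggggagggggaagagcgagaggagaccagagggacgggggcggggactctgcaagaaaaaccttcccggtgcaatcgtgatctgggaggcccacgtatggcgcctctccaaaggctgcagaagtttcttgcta
The ZEB1 window held 3 such E-boxes, with first bases at -242, -85 and 33 from the start, and the windows of CDH2 and VIM held none. Of 35116 RefSeq promoter windows of this length, 20.6% held at least 1. Windows were matched for 5 of the 10 genes, and those of ZEB2 and FN1 also held none. A match is a description of the letters and not a binding site.

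SNAI1 (Snail) was the gene of the set that rose with cisplatin in both lines. It was at 12.1, 7.69 and 13.9 normalized counts in the A2780 control libraries and at 107, 88.0 and 100.1 in the A2780 cisplatin libraries. In Acis it was at 84.0, 60.8 and 75.3 without and at 173, 166 and 145 with cisplatin. No 2 of the 4 groups overlapped, and the untreated Acis libraries lay just below the treated A2780 libraries. The log2 fold change with cisplatin was 3.13 ± 0.20 (SE, n = 3 against 3; adjusted p = 8.2e-13, edgeR's quasi-likelihood test with Benjamini-Hochberg adjustment over 15760 genes, as for every adjusted p here) in A2780 and 1.14 ± 0.11 (edgeR adjusted p = 2.41e-08) in Acis. The increase was smaller in Acis, by a log2 difference of -1.99 (95% CI -2.51 to -1.47, edgeR adjusted p = 4.21e-06 for the interaction). Untreated Acis exceeded untreated A2780 6.50-fold (95% CI on the log2 scale 2.25 to 3.15, edgeR adjusted p = 2.04e-11), and under cisplatin the lines differed by 0.71 ± 0.10 (edgeR adjusted p = 8.61e-07), below the threshold of 1. The A2780 control level rests on 34 counts over 3 libraries.

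SNAI2 (Slug), the paralog of SNAI1, had the opposite order between the lines. Its normalized counts were 465, 475 and 476 in A2780 control and 116, 120 and 109 in Acis control libraries. Under cisplatin they were 450, 442 and 449 in A2780 and 103, 142 and 124 in Acis. Every Acis library was below every A2780 library. The log2 difference was -2.03 ± 0.08 without treatment (edgeR adjusted p = 6.86e-19) and -1.87 ± 0.07 under cisplatin (edgeR adjusted p = 2.11e-18). No change with cisplatin passed the test, with log2 fold changes of -0.07 (95% CI -0.18 to 0.03) in A2780 and 0.09 (95% CI -0.13 to 0.30) in Acis.

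TWIST1, a basic helix-loop-helix factor of mesoderm and neural crest, was nearly confined to A2780 in these libraries. It had 595, 589 and 587 normalized counts in A2780 control and 530, 573 and 552 in A2780 cisplatin libraries. Acis control libraries held 0, 4 and 1 raw counts and Acis cisplatin libraries 2, 0 and 1. Over the untreated libraries this is 1800 against 5 counts, a ratio of 325 (95% counting interval 139 to 1003), and under cisplatin 1722 against 3, a ratio of 565 (193 to 2745). Both differences passed the test (edgeR adjusted p = 2.02e-24 and 1.78e-24). The fitted untreated log2 difference was -8.25. Without Acis control replicate 2 it was -9.78, and without Acis control replicate 1 it was -7.70. Under cisplatin the fitted difference was -8.97, and -9.80 without Acis cisplatin replicate 1. The change with cisplatin in A2780 was -0.10 ± 0.05 (edgeR adjusted p = 0.126). Its paralog TWIST2, not one of the 10 genes, showed the reverse, with 277 counts over the Acis control libraries and 0 over the A2780 control libraries. Against a floor of 3 counts over the group, TWIST2 was at least 102-fold higher in untreated Acis.

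ZEB1 and ZEB2 are zinc finger homeodomain repressors. ZEB1 was at 729, 702 and 774 normalized counts in A2780 control, 498, 528 and 566 in A2780 cisplatin, 632, 617 and 651 in Acis control and 523, 537 and 496 in Acis cisplatin libraries. It fell with cisplatin in both lines, without overlap of treated and control libraries, by 0.47 ± 0.05 on the log2 scale in A2780 (edgeR adjusted p = 1.3e-08) and by 0.29 ± 0.05 in Acis (edgeR adjusted p = 0.000176). The difference between these effects was 0.18 (95% CI 0.03 to 0.33, edgeR adjusted p = 0.0858), and it passed the test without A2780 cisplatin replicate 3 (0.23, adjusted p = 0.0343) or without Acis cisplatin replicate 3 (0.21, adjusted p = 0.0475). The log2 difference of untreated Acis from untreated A2780 was -0.21 ± 0.05 (edgeR adjusted p = 0.00048), and under cisplatin the difference was -0.03 (95% CI -0.14 to 0.08).

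ZEB2 was low throughout. It had 15, 24 and 28 raw counts in A2780 control and 15, 10 and 13 in A2780 cisplatin libraries, against 1 count in all over the Acis control and 0 over the Acis cisplatin libraries. The untreated ratio of A2780 to Acis was 60.6 (95% counting interval 10.5 to 2428), and under cisplatin A2780 was at least 12.5-fold higher. Without Acis control replicate 3, which holds that 1 count, the fitted untreated log2 difference went from -5.50 to -7.49, and without the other libraries it was -5.77 to -5.05. Both differences passed the test (edgeR adjusted p = 5.56e-08 and 1.25e-06). The decrease with cisplatin in A2780 was -0.84 ± 0.30 (edgeR adjusted p = 0.0201), with overlapping groups, and it was not past the threshold with DESeq2 (-0.88, adjusted p = 0.169) or without A2780 control replicate 2 (adjusted p = 0.0587), A2780 control replicate 3 (0.148) or A2780 cisplatin replicate 2 (0.084).

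CDH2, N-cadherin, was lower in Acis and fell with cisplatin in both lines. It was at 635, 619 and 638 normalized counts in A2780 control and at 373, 381 and 377 in A2780 cisplatin libraries. In Acis it was at 76.5, 68.2 and 60.5 without and at 47.0, 45.3 and 55.0 with cisplatin. The 4 groups did not overlap. Untreated Acis was at 0.109 of the A2780 level (log2 -3.20 ± 0.07, edgeR adjusted p = 5.64e-24), and the difference under cisplatin was -2.94 ± 0.09 (edgeR adjusted p = 2.25e-21). The decrease with cisplatin was -0.74 ± 0.05 in A2780 (edgeR adjusted p = 6.17e-13) and -0.48 ± 0.13 in Acis (edgeR adjusted p = 0.0141). In Acis it was not past the threshold without Acis control replicate 1 (-0.39, adjusted p = 0.117), Acis cisplatin replicate 1 (-0.45, adjusted p = 0.0582) or Acis cisplatin replicate 2 (-0.43, adjusted p = 0.0711). The effects in the lines differed by 0.26 (95% CI -0.03 to 0.56), which did not pass the test. CDH2 spans 245.1 kb and ZEB1 211.3 kb, and over all 2107 tested genes of 100 to 300 kb the median log2 fold change with cisplatin was -0.39 in A2780 and -0.17 in Acis. The part of gene length in these decreases was not tested.

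VIM was the most abundant of the set and differed least between the untreated lines. Its normalized counts were 1949, 1966 and 2106 in A2780 control and 1968, 1976 and 2001 in Acis control libraries, which overlapped. The log2 difference was -0.02 (95% CI -0.08 to 0.05), an interval that covers the spread between these libraries only. Cisplatin libraries were at 1843, 1817 and 1833 in A2780 and at 1746, 1799 and 1806 in Acis. The log2 change with cisplatin was -0.13 ± 0.03 in A2780 (edgeR adjusted p = 0.00104) and -0.15 ± 0.03 in Acis (edgeR adjusted p = 0.000768). Scaling by total counts moves the median of all genes in A2780 from -0.01 to 0.10 on the log2 scale, and the VIM change there is then -0.01 (adjusted p = 0.762). With genes of a mean of at least 50 counts alone it was -0.07 (adjusted p = 0.0512).

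FN1 and EPCAM were at the limit of detection. FN1 had 7, 1 and 2 raw counts in A2780 control, 1, 2 and 5 in A2780 cisplatin, none in Acis control and 1, 1 and 2 in Acis cisplatin libraries. Untreated A2780 was at least 3.01-fold higher than untreated Acis against a floor of 3 counts over the group, but 7 of its 10 counts were in replicate 1, and without that library 3 counts remain, which is at the floor. EPCAM had 5, 4 and 2 counts in A2780 control, 4, 6 and 3 in A2780 cisplatin, 1, 0 and 1 in Acis control and 1, 0 and 1 in Acis cisplatin libraries. The untreated ratio of A2780 to Acis was 4.97 (95% counting interval 1.09 to 46.2). With no filter on low counts, the untreated line difference had an edgeR adjusted p of 0.0427 for EPCAM and 0.00673 for FN1. The intervals and floors cover counting error only.

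**Figure D1:**
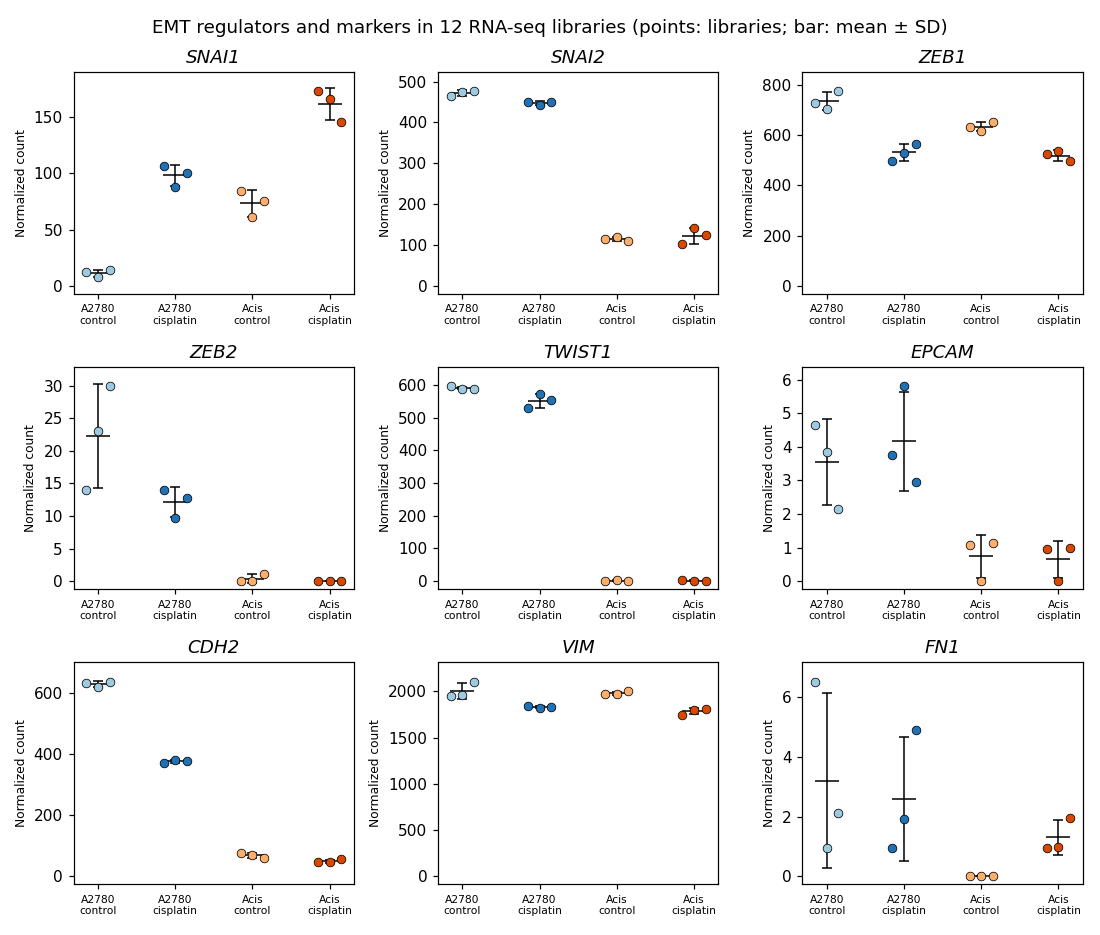
Normalized counts (y axes, linear) of the 9 genes with a row, in the 4 groups; each point is a library and the bar is the mean ± SD of 3. SNAI1 is higher in every cisplatin library than in the controls of its line, whereas TWIST1, ZEB2, SNAI2 and CDH2 are lower in every Acis library than in every A2780 library. EPCAM is so too, at 6 raw counts or fewer in every library.

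Of the 7 tested genes, 1 was higher and 4 were lower in untreated Acis past both thresholds, where 6.99% of all tested genes were higher and 12.2% lower. With the adjusted p alone it was 1 higher and 5 lower, where 28.2% and 30.6% of all genes were. TWIST1 and ZEB2 passed the filter only through A2780, so they had to differ, and these counts are a description. Under cisplatin, 0 were higher and 4 lower past both thresholds in Acis against A2780 (all genes 7.28% and 11.9%), and 1 was higher and 4 lower with the adjusted p alone (31.8% and 31.2%).

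With cisplatin in A2780, SNAI1 alone passed both thresholds, upward (all genes 4.14% higher and 1.48% lower). At the adjusted p alone, SNAI1 was higher and CDH2, ZEB1, ZEB2 and VIM were lower (all genes 21.2% and 28.2%). In Acis, SNAI1 again alone passed both thresholds (all genes 1.64% higher and 0.374% lower), and at the adjusted p alone CDH2, ZEB1 and VIM were lower (all genes 9.35% higher and 12.4% lower). SNAI1 was the only one with an interaction past the threshold, where 13.4% of all genes had a more positive effect in Acis and 5.48% a more negative one. Scaling by total counts changed these interaction calls over all genes from 2113 positive and 863 negative to 1463 and 1572, and those with cisplatin in A2780 from 652 higher and 233 lower to 804 and 153. The comparisons share control libraries, so their values are side by side and not independent.

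**Figure D2:**
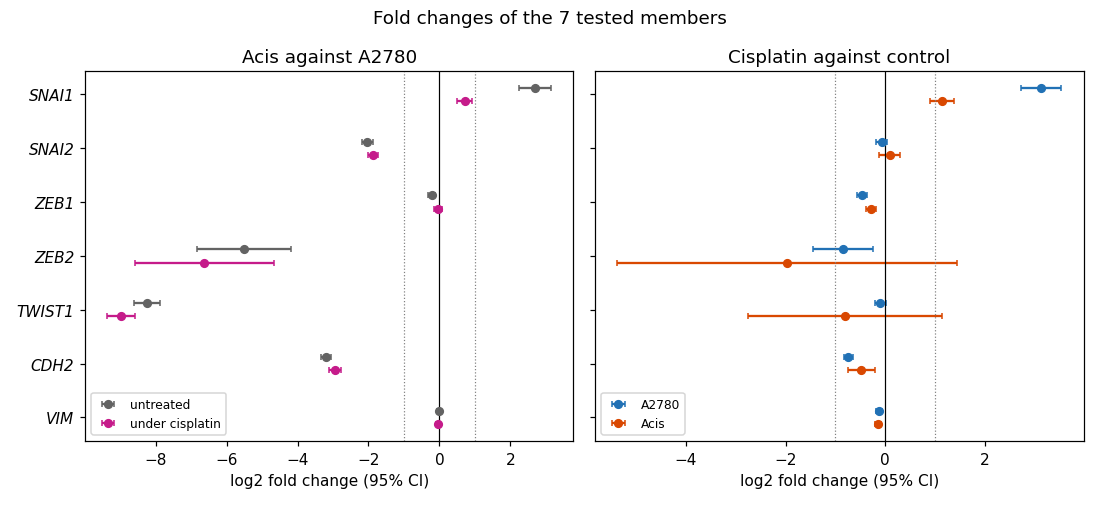
Log2 fold changes with 95% confidence intervals (x axes) of the 7 tested genes, Acis against A2780 on the left and cisplatin against control on the right; dotted lines mark 1 and -1. SNAI1 lies right of 1 in both lines with cisplatin, at 3.13 and 1.14, and the wide intervals of ZEB2 and TWIST1 in Acis rest on 5 counts or fewer per group.

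Per kilobase of exon, VIM was at 388 normalized counts in A2780 control and 383 in Acis control, above 99.5% and 99.3% of tested genes. In A2780 control the order of levels was VIM, TWIST1 (296), SNAI2 (144), ZEB1 (85.0), CDH2 (73.5), SNAI1 (6.59), EPCAM (1.46), ZEB2 (0.854) and FN1 (0.186). In Acis control it was VIM, ZEB1 (73.3), SNAI1 (43.0), SNAI2 (35.1) and CDH2 (7.97), with TWIST1, EPCAM, ZEB2 and FN1 under 1. Neighbours in this order whose libraries overlapped were EPCAM and ZEB2 in A2780 control, and in Acis control SNAI1 (35.6 to 49.2) and SNAI2 (33.4 to 36.7) and the 4 lowest genes. Under cisplatin, SNAI1 reached 57.6 per kilobase in A2780, where its libraries overlapped those of ZEB1 (61.4), and 94.7 in Acis, second to VIM (345). The median tested gene was at 37.0 per kilobase in A2780 control and 35.7 in Acis control. The length used is that of all annotated exons of a gene together, with 26151 bases for ZEB2, 17216 for FN1 and 2430 for EPCAM. Before division by length, ZEB2 had more normalized counts than EPCAM in A2780 control (22.3 against 3.55), so their order depends on this length.

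The ATAC-seq lists hold peaks of open chromatin, 34979 without and 32159 with cisplatin in A2780, and 24485 without and 27321 with cisplatin in Acis. Each is 1 list per condition, so no difference between lists has a test, and a peak missing from a list may have been below the caller's or the overlap criterion in it. Within 1000 bp of the start, 5 of the 10 genes had a peak in A2780 control and 6 in A2780 cisplatin, whereas 3 had one in each Acis list. Among all tested genes, 72.9% and 74.4% had one in the A2780 lists and 66.4% and 70.7% in the Acis lists, control first. These shares are not on the same base, since the 10 include CDH1, EPCAM and FN1, which were not tested. Of the 7 tested genes, only ZEB2 and CDH2 had no start peak in the A2780 lists. In the Acis lists SNAI1 and TWIST1 had none either.

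SNAI2, ZEB1 and VIM had a start peak in every list. The fold enrichment over local background at SNAI2 was 10.5 without and 12.2 with cisplatin in A2780, and 11.7 and 9.51 in Acis, but in Acis the peak covered only -664 to -283 and -664 to -258 from the start, against -669 to 101 in A2780 control. At ZEB1 it was 10.4, 9.85, 10.3 and 11.6, and at VIM 6.70, 6.34, 6.19 and 5.12 for the peak nearest the start. SNAI2 thus had a peak in both lines, with RNA lower in Acis.

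TWIST1 had a start peak in the A2780 lists only, at chr7:19117513-19118004 with an enrichment of 15.9 in A2780 control and 9.65 in A2780 cisplatin. Neither Acis list had a peak within 5000 bp of TWIST1 or inside it. SNAI1 had a start peak in the A2780 lists only as well, at chr20:49982791-49983204 with an enrichment of 5.59 in A2780 control and 6.11 in A2780 cisplatin, although its RNA was higher in Acis. These SNAI1 enrichments were below the medians of their lists (9.96 and 8.79), whereas those at TWIST1 were above them. A second peak, with its summit at -3685 to -3613 bp from the SNAI1 start, was in all lists, with enrichments of 13.6 and 9.30 in the control and cisplatin lists of A2780 and of 14.2 and 15.7 in those of Acis.

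CDH2 had no peak in its gene or within 5000 bp of it in 3 lists, and in A2780 cisplatin a weak one at -1444 to -1186 bp from the start (enrichment 4.64). FN1 had a start peak in A2780 cisplatin only (enrichment 5.38, -log10 q of 7.37). ZEB2, CDH1 and EPCAM had none within 1000 bp of the start used. At EPCAM, a peak at another annotated start, chr2:47344653-47345602 in A2780 control, was in all lists with an enrichment of 16.2 to 21.2, while EPCAM RNA was at 6 counts or fewer in every library. This peak also covered the start of the divergent transcript EPCAM-DT, so it cannot be given to EPCAM alone. EPCAM-DT had 20 counts over the A2780 control libraries and 2 over the Acis control libraries. CDH1 had a peak about 63 kb inside the gene in A2780 control, A2780 cisplatin and Acis cisplatin, with an enrichment of 8.75 to 10.1.

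**Figure D3:**
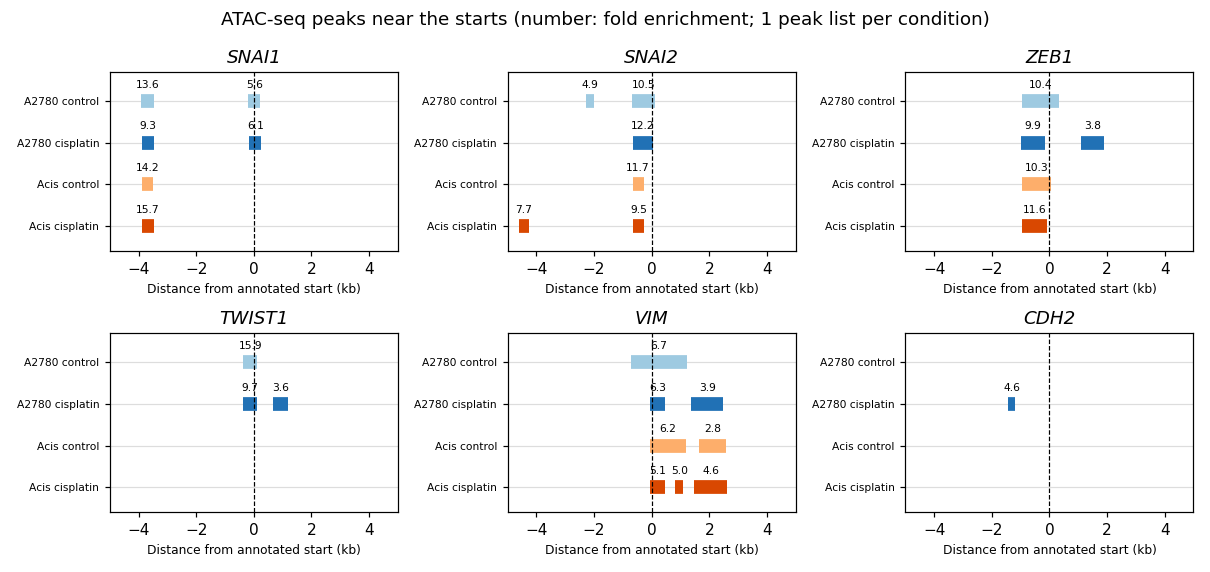
ATAC-seq peaks (bars) within 5 kb of the annotated start of 6 genes, by distance from the start in kb (x axes) and by condition (rows); numbers are fold enrichments. The start peaks of SNAI1 and TWIST1 are in the A2780 rows only, and the peak before SNAI1 is in all 4 rows.

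Wider EMT and adhesion genes were read from lists, beside shares over all tested genes of 6.99% higher and 12.2% lower in untreated Acis past both thresholds. Each list holds tested genes under 10 normalized counts in an untreated line; genes that passed the filter only through the line where they are high had to differ, so the counts are a description. Of 36 tested genes of mesenchymal matrix and cytoskeleton, 3 were higher and 19 lower, and 9 of the 19 were under 10 normalized counts in Acis control. The collagen COL6A3 was at 2644 ± 32.7 normalized counts in A2780 control and 10.5 ± 2.00 in Acis control (SD, n = 3), a log2 difference of -7.96. Periostin (POSTN, -4.74) and the proteoglycan versican (VCAN, -7.50) were lower too, and thrombospondin THBS1 had 4130 against 10 counts. The 3 higher genes, named after their values were seen, were COL3A1, FBN1 and MMP3. The collagen COL3A1 had a mean of 1802 normalized counts in A2780 control and 3948 in Acis control. FBN1 had 266 and 1090, and MMP3 439 and 1427, in the same order.

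Among 8 other EMT transcription factors, 1 was higher and 3 lower. TWIST2 was the higher one, and FOXC1 (log2 -1.08) and PRRX1 were among the lower ones, PRRX1 with 742 counts over the A2780 control libraries and 0 over Acis control. Of 12 other cadherins and catenins, 2 were higher and 5 lower, the 5 all under 10 normalized counts in Acis control. CDH10 (-6.11) and CTNNA2 (405 against 2 counts) were among the lower ones, and CTNNA3 (2.92) was among the higher ones. Of 14 junction and keratin genes, 3 were higher and 5 lower. The keratin KRT18 (2.49) and the polarity gene LLGL2 (1.28) were higher in Acis, whereas plakoglobin JUP (-2.87) and desmocollin DSC2 (191 against 2 counts) were lower.

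Of 4 tested epithelial-state regulators, 1 was higher, FOXA1 (149 counts in Acis control against 5), and 2 were lower, among them RBM47 (284 counts in A2780 control against 6 in Acis control). Of 14 integrins and syndecans, 2 were higher and 6 lower, with ITGA6 higher (194 ± 5.83 in A2780 control and 1025 ± 33.8 in Acis control, SD, n = 3) and ITGA5 (-1.42), ITGA1 (1517 against 3 counts) and SDC2 (2170 against 7) lower. Of 23 genes of the TGF-beta pathway, 2 were higher and 2 lower, shares near those of all tested genes. The activin subunit INHBA had 3071 counts in Acis control against 3 in A2780 control, and the co-receptor TGFBR3 was lower (-1.61).

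**Figure D4:**
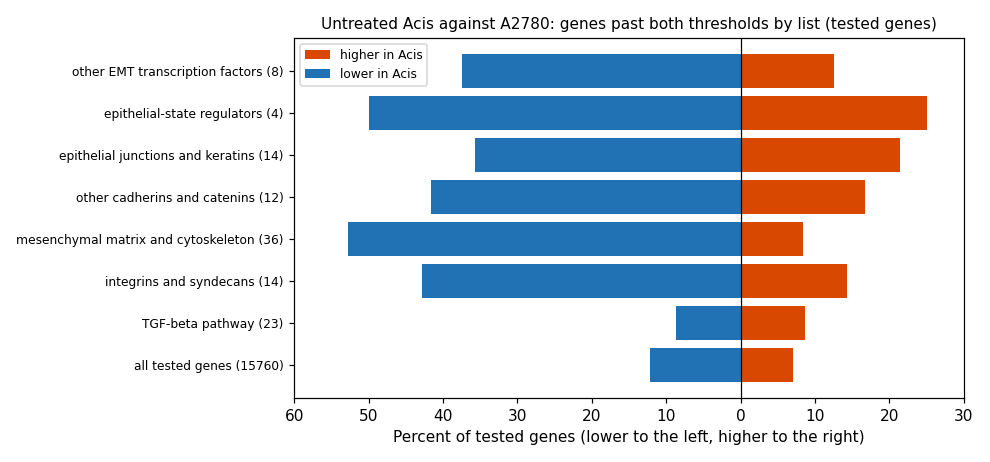
Percent of tested genes in each list that were higher (right) or lower (left) in untreated Acis than in untreated A2780 past both thresholds, with the number tested in parentheses. In the mesenchymal matrix list 19 of 36 genes are lower, 9 of them under 10 normalized counts in Acis control, and 12.2% of all tested genes are lower.

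With cisplatin in A2780, 1 gene was higher and 1 lower past both thresholds of the 36 matrix and cytoskeleton genes, where 4.14% of all tested genes were higher and 1.48% lower. None was higher and 3 were lower of the 12 cadherins and catenins, 2 of the 14 junction and keratin genes, 2 of the 14 integrins and syndecans and 1 of the 4 epithelial-state regulators. VCAN (log2 -1.10), RBM47 (-1.08) and the integrin ITGA8 (-1.05) were among the lower genes. The higher one was the membrane metalloprotease MMP14, named after its values were seen, at 12.9 ± 2.90 normalized counts without and 33.7 ± 2.33 with cisplatin (SD, n = 3). Of the 23 TGF-beta genes none passed both thresholds, and at the adjusted p alone 14 were lower and 1 higher, where 28.2% of all tested genes were lower and 21.2% higher. Other lists had many lower genes at the adjusted p alone as well. Of the 36 matrix and cytoskeleton genes 21 were lower and 6 higher, and of the 14 integrins and syndecans 9 were lower and 0 higher. Of the 12 cadherins and catenins 6 were lower and 0 higher, and of the 14 junction and keratin genes 5 were lower and 1 higher. In Acis, no gene of these lists passed both thresholds, where 1.64% of all tested genes were higher and 0.374% lower. At the adjusted p alone, 6 of the 23 TGF-beta genes were lower and 2 higher there, where 12.4% and 9.35% of all tested genes were. By the same measure in Acis, 3 of the 12 cadherins and catenins were lower and 1 higher. So were 3 and 1 of the 14 integrins and syndecans, and 5 and 1 of the 36 matrix and cytoskeleton genes. Antisense transcripts at these genes were read by strand: VIM-AS1 was lower in untreated Acis (-0.62 ± 0.15, edgeR adjusted p = 0.000737), although 1 Acis control library, at 246.4, lay within the A2780 control range of 246.2 to 261.2. ZEB1-AS1 was lower without overlap (-0.80 ± 0.17, edgeR adjusted p = 0.000152), and VIM-AS1 was higher with cisplatin in A2780 (0.36 ± 0.12, edgeR adjusted p = 0.0154), opposite in sign to VIM.

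Among 10887 genes with a mean of at least 50 normalized counts, the 3 whose centred log2 pattern over the 12 libraries was nearest to that of SNAI1 were JUN (root mean square difference 0.381), ARC (0.433) and PMAIP1 (0.514). JUN was at 10.6 normalized counts without and 139 with cisplatin in A2780, and at 60.7 and 136 in Acis. Nearest to CDH2 were CASZ1 (0.134), FBN2 (0.151) and LGR4 (0.179). FBN2 was at 948, 529, 106 and 76.2 in the same order. The patterns share libraries and are a description.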

How the data were processed

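The authors aligned stranded, ribosomal RNA-depleted reads to hg38 with STAR 2.7.3, removed PCR duplicates with Picard and counted reads per gene with HTSeq 0.11.1 (reverse strand); these counts were deposited raw, and every row sums to at least 10. ATAC-seq reads were trimmed with cutadapt 1.15 and aligned with Bowtie2 2.4.1; the authors called peaks with MACS2 and kept regions shared by all replicates of a condition. The deposited lists give a fold enrichment ratio and -log10 p and -log10 q values. No processed XR-seq file was used here.

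Counts were tested in R 4.3.3 with edgeR 4.0.16: TMM, default low-count filter (15760 genes), 1 quasi-likelihood fit of the 4 groups over 12 libraries, thresholds of adjusted p under 0.05 and absolute log2 fold change of at least 1 (interaction: adjusted p alone). Normalized counts are TMM-scaled to the mean library. Depth was 4130644 to 5072216 counts. The fit was tested on simulated data. DESeq2 1.42.0, other scalings and filters, merged replicates and left-out libraries were alternatives. Starts are those of canonical transcripts in GENCODE 44 (GRCh38). All 10 genes are named; of other lists, at most 4 genes (untreated) or 3 (cisplatin) per list with the smallest adjusted p, non-overlapping groups and a mean of at least 50; and the 3 genes most like SNAI1 and CDH2. A gene that this rule selects is not reported here. The genes and lists were chosen with earlier results of these data known.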

Additional observations from a re-analysis of the deposited data

Results flagged for a closer look

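The fold effect of cisplatin on SNAI1 differed between the lines by the interaction test, with a log2 difference (Acis minus A2780) of -1.99 (edgeR adjusted p = 4.21e-06). In normalized counts the rise was of similar size in both lines (means 11.2 to 98.3 in A2780 and 73.3 to 161.5 in Acis). SNAI1 was higher with cisplatin in 3 of 3 libraries of each line. Groups of 3 libraries were not searched for single libraries that stand apart.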

How the results depend on the processing

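At the adjusted p alone, 5 genes instead of 1 were called with cisplatin in A2780, and 4 instead of 1 in the resistant line. Leaving out 1 library gave 1 to 2 called genes with cisplatin in A2780 (2 without A2780 control replicate 1) and 1 to 2 for the interaction (2 without A2780 cisplatin replicate 3 or Acis cisplatin replicate 3). A peak overlapping the start base itself was found for 1 gene in Acis cisplatin, instead of 3 within 1000 bp. Total-count scaling turned the log2 change with cisplatin in A2780 to 0.0420 for SNAI2 and to 0.0210 for TWIST1. For ZEB2 with cisplatin in Acis, leaving out 1 library gave -2.44 to 0. The 0 was without Acis control replicate 3, when neither group held a count. Leaving out 1 library turned the sign of some log2 values that were not past the threshold: VIM between the untreated lines (-0.0522 to 0.00122), SNAI2 (-0.0278 to 0.203) and TWIST1 (-1.65 to 0.700) with cisplatin in Acis, ZEB1 between the treated lines (-0.0767 to 0.0159, and 0.00175 without Acis cisplatin replicate 3), and the interactions of ZEB2 (-1.59 to 0.851), TWIST1 (-1.55 to 0.802) and VIM (-0.0530 to 0.0011). The cause was not tested. Of 518 single-gene values under alternatives, 494 kept direction and side of the threshold. Between the treated lines VIM passed it under total counts (-0.10, adjusted p = 0.007) and with a mean of at least 50 (-0.09, adjusted p = 0.0134). Whether replicate numbers pair the libraries was not settled. Correlations between libraries of the same number were -0.176 to 0.2465, and pairs with other numbers were not compared. With the replicate block 5 genes were called between the untreated lines, 4 between the treated lines, and 1 in each remaining comparison, as without it. Depth limits ZEB2, EPCAM, FN1 and, in Acis, TWIST1.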
